A study of Mus musculus with 20 samples.

Results

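Integrins and adhesion molecules of germinal centre B cells and their plasma cell progeny are described here through 7 genes: the integrin subunits Itga4, Itgb1, Itgb7, Itgal and Itgb2, the hyaluronan receptor gene Cd44 and the tetraspanin gene Cd9. The genes were taken from a list by symbol, and all 7 were present among the 16047 genes of the deposited matrix. The cells were eYFP+ B cells and plasma cells sorted one by one from lymph nodes of C57BL/6 mice immunised with NP-KLH (a hapten on a carrier protein) in Sigma Adjuvant System, at day 15 of the primary response and 4 days after tamoxifen by gavage. All cells shared that treatment, and the alleles behind the eYFP label are not given in the sources used here. The 2 sampleIDs were C57BL/6M (741 cells on 10 plates) and C57BL/6F (626 cells on 10 plates). The number of mice is not given, so p-values measure the spread between plates, which may be technical, and sex, animal and sampleID cannot be told apart. Cells came from 4 flow cytometry gates, with 393 in the plasma cell gate, 282 in the pre-plasma gate, 325 in the dark zone gate and 367 in the light zone gate. A supervised annotation by the authors put the same cells into 7 states, with 480 plasma cells, 29 activated and 63 memory-like pre-plasma cells, 17 pre-memory, 48 light-to-dark zone, 278 light zone and 452 dark zone cells.

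Integrins are pairs of an alpha and a beta subunit that bind ligands on other cells or in the matrix and link them to the actin skeleton. The α4 chain encoded by Itga4 pairs with the β1 chain (Itgb1) to form VLA-4, which binds VCAM-1 and fibronectin, or with the β7 chain (Itgb7) to form α4β7, which binds MAdCAM-1 and guides lymphocytes to the gut. The αL chain (Itgal) and the β2 chain (Itgb2) form LFA-1, the receptor for ICAM-1. CD44 binds hyaluronan and is linked to actin by ezrin, radixin and moesin, while the tetraspanin CD9 associates with integrins in the membrane. In lymph nodes, LFA-1 and VLA-4 hold germinal centre B cells to follicular dendritic cells, and plasma cells use VLA-4 and CD44 for retention in their niches. None of the 7 proteins was among the 10 fluorescence channels of the sort.

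Counts were summed over the cells of 1 class on 1 plate, and each such sum, called a pool, needed at least 5 cells. Pool values are TMM-scaled CPM (counts divided by a scaled library total), with the lowest, median and highest pool given. Single-cell depth had a median of 60536 counts, and the median depth was 59514 in the plasma cell gate, 86862.5 in the pre-plasma gate, 51995 in the dark zone gate and 54019 in the light zone gate. Plate totals ran from 5979 to 11908095 counts. Plates 2, 4 and 6 of C57BL/6F stood apart, with medians of 521.5, 471 and 253 genes per cell against 848 to 2114 on the other plates, and plate 6 held 10 cells. No cell reached the count ceiling of 1024 in a member, the highest member count being 555. All 94 well barcodes occurred on several plates, as the design of a plate protocol requires, and 0 cells had identical counts. The 7 plasma cell markers summed to 14587 CPM in annotated plasma cells and 2711 CPM in germinal centre B cells, and the 6 germinal centre markers to 124 and 2958 CPM. In cells annotated as memory-like pre-plasma the plasma cell markers summed to 21129 CPM. The 5 markers of memory or naive B cells summed to 306.8 CPM there, with no count of Ccr6 and Klf2. That list stood at 318 CPM in activated, 138 CPM in plasma and 68.8 CPM in germinal centre B cells. Its memory-like pools ran from 0 to 1701 CPM. The name memory-like is used here only as the authors' label. Of markers of other cells, the T cell list was lower in plasma cells than in germinal centre B cells at 26.4 and 331 CPM, with Lck alone at 25.0 and 329.9 CPM and no count of Cd8a in either. The myeloid list was higher at 101 and 27.8 CPM, and its pools ran from 17.3 to 398 CPM in plasma cells and from 0 to 61.7 CPM in germinal centre B cells. Cd68 alone made up 95.1 and 25.7 CPM of those sums. Lyz2 was also higher in plasma than in germinal centre B cells, at 4.39 and 2.10 CPM, as was Itgam at 1.34 and 0.036 CPM. The myeloid receptor genes Csf1r and Fcgr1 had 1 count each in the 480 plasma cells. The part of RNA from myeloid cells, which also use Itgb2 and Cd44, in the values below was not tested.

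The members lie on 6 mouse chromosomes (GRCm38): Itga4 at chr2:79255426-79333123 and Itgal at chr7:127296260-127335138, Itgb1 at chr8:128685654-128733200 and Itgb2 at chr10:77530252-77565708 on the plus strand, and Itgb7 at chr15:102215995-102231944, Cd44 at chr2:102811141-102901665 and Cd9 at chr6:125460266-125494791 on the minus strand. FB5P-seq reads the 5′ ends of transcripts, so the counts arise next to the promoters. RefSeq promoter windows (GRCm38.p6, 250 bases before to 50 after the start) matched 5 of the 7 genes, and 4 are shown because Itga4, Itgb7 and Cd9 had the largest fold changes between plasma and germinal centre cells in the results below, while Itgb1, a partner of Itga4, did not pass that test. They span chr2:79255176-79255475 for Itga4, chr15:102231886-102232185 for Itgb7, chr6:125494711-125495010 for Cd9 and chr8:128685404-128685703 for Itgb1, each printed 5′ to 3′ on the strand of its gene. Capitals mark the GC box letters GGGCGG and the letters GAAAG, the core of the site of Blimp-1 (the repressor that drives plasma cell differentiation), or their reverse complements.
Itga4: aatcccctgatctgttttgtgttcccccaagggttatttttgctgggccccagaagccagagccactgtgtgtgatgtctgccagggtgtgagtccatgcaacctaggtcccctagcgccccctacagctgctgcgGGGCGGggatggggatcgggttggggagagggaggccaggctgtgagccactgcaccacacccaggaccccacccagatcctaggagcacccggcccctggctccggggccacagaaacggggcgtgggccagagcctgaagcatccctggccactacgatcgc
Itgb7: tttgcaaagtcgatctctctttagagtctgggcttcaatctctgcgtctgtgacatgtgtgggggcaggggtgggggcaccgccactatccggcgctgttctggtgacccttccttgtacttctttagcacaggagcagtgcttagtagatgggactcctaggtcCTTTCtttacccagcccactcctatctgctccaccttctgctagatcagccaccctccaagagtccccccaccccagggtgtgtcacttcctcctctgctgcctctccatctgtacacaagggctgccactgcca
Cd9: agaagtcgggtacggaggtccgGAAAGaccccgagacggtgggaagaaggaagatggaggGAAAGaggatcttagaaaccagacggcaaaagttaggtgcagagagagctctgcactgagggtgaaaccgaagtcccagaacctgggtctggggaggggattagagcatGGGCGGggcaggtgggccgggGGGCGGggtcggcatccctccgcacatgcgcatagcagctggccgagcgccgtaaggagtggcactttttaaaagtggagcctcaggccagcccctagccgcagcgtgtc
Itgb1: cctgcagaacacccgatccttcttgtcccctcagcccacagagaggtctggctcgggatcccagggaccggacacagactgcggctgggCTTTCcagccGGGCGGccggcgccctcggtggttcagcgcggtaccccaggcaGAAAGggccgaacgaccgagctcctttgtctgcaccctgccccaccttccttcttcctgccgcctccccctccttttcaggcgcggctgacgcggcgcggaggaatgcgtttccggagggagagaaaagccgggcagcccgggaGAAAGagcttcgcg

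Both strands of each window were searched for short letter runs. The GC box GGGCGG occurred 1 time in Itga4 and in Itgb1, 2 times in Cd9 and 0 times in Itgb7, and 35.7% of 32851 promoter windows of the same length hold it. The core GAAAG occurred 3 times in Itgb1, 2 times in Cd9, 1 time in Itgb7 and 0 times in Itga4, against 57.3% of windows with at least 1 match. The ETS core CCGGAA was found 1 time in Itgb1 and in Cd9 and 0 times in the other 2, against 14.9% of windows, and the XBP1 core ACGTG, held by 19.6% of windows, in none of the 4. No searched run was held by Itga4, Itgb7 and Cd9 together and missing in Itgb1. GC content was 64.3% in Itga4, 56.3% in Itgb7, 61.3% in Cd9 and 67.3% in Itgb1, and the median of all windows was 52.7%.

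The plasma cell gate was set against the dark and light zone gates together because gating rests on surface markers and not on the transcripts counted. Of the 7 members, 6 rose in the plasma cell gate and none fell, on 19 plates that held both classes; over all 6865 genes tested, 34.9% passed the same threshold and 13.6% rose. The members' median log2 fold change was 2.45, and that of all genes -0.50. In such pools, fewer cells with a transcript and less RNA per cell cannot be told apart. Tests were edgeR quasi-likelihood tests with the plate as block and Benjamini-Hochberg adjusted p under 0.05 over all genes, fold changes are log2 ± SE, and they include the small prior count of edgeR, so that those against near-empty classes depend on it.

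Itga4, the α4 chain shared by VLA-4 and α4β7, had 0, 138 and 249.6 CPM (lowest, median and highest pool) in the plasma cell gate, against 0, 0 and 23.7 CPM in the germinal centre gates. Its log2 fold change was 7.54 ± 0.89 (adjusted p = 3.49e-07, edgeR), with 3599 counts in the plasma cell gate and 153 in the germinal centre gates. The plasma pool exceeded every germinal centre pool on 17 of 19 plates, and the 2 exceptions, plates 2 and 4, had 0 counts. Itgb7, its β7 partner, had 0, 49.3 and 170.3 CPM in the plasma cell gate and 0, 0.338 and 19.4 CPM in the germinal centre gates, a log2 fold change of 5.42 ± 1.05 (adjusted p = 2.24e-04, edgeR). It was higher on 16 of 19 plates, and plates 2, 9 and 11 had no count in the plasma pool. Itgb1, the other partner of α4, had 0, 25.8 and 81.9 CPM in the plasma cell gate and 0, 32.9 and 116 CPM in the germinal centre gates, and did not pass the test (log2 fold change -0.11 ± 0.83, adjusted p = 0.940, edgeR). The ranges of Itgb1 overlapped throughout, with the plasma pool higher on 9 of 19 plates.

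Both chains of LFA-1 rose in the plasma cell gate. Itgal had 0, 138 and 319 CPM there and 0, 30.2 and 90.3 CPM in the germinal centre gates, a log2 fold change of 2.45 ± 0.39 (adjusted p = 2.41e-05, edgeR). The plasma pool was higher on 18 of 19 plates, and plate 4 had no count. Itgb2 had 148, 315 and 778 CPM in the plasma cell gate against 26.8, 212 and 338 CPM in the germinal centre gates, a smaller log2 fold change of 0.75 ± 0.22 (adjusted p = 0.00835, edgeR). Its ranges overlapped, with the plasma pool higher on 14 of 19 plates.

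Cd44 had 42.5, 189.6 and 321 CPM in the plasma cell gate and 0, 46.1 and 101 CPM in the germinal centre gates (log2 fold change 2.11 ± 0.44, adjusted p = 4.16e-04, edgeR). It was the member that was higher in the plasma pool on all 19 plates. Cd9 had 0, 106 and 254 CPM in the plasma cell gate and 0, 0 and 21.1 CPM in the germinal centre gates, the largest fitted difference of the members at 8.69 ± 1.02 (adjusted p = 2.05e-07, edgeR). Cd9 counts numbered 3857 in the plasma cell gate and 155 in the germinal centre gates, where 15 of 19 pools had none. Only plate 2 had no Cd9 count in its plasma pool. Without plates 2, 4 and 6, an alternative chosen after the data were seen, the same 6 members passed. Within C57BL/6M the 6 passed as well, with fold changes from 0.89 for Itgb2 to 8.15 for Cd9. Within C57BL/6F, Itgal (2.56) and Cd9 (9.20) passed, while Itgb7 (4.54, adjusted p = 0.110), Itgb2 (0.61, adjusted p = 0.296) and Cd44 (1.80, adjusted p = 0.0980, edgeR) kept their direction without passing and Itga4 did not pass the filter on low counts.

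**Figure D1:**
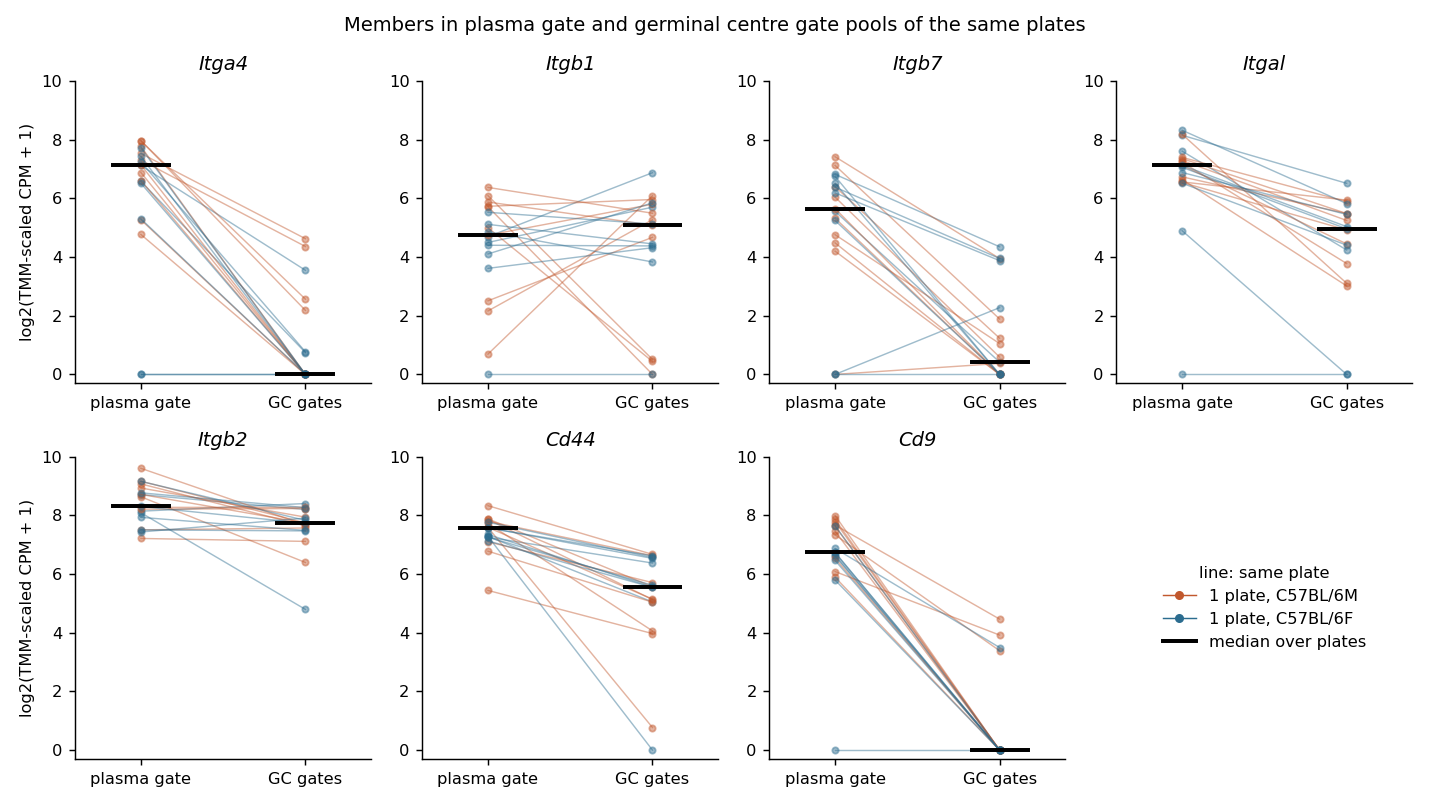
Level of each member, as log2 of TMM-scaled CPM plus 1, in plasma cell gate pools (left) and germinal centre gate pools (right) of 19 plates; a line joins the pools of 1 plate and black bars are medians. Cd44 lines all run lower on the germinal centre side, most Itga4, Itgb7 and Cd9 lines end at or near 0 there, and Itgb1 lines cross.

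By annotation the 282 cells of the pre-plasma gate were mixed, with 128 plasma cells, 29 activated and 27 memory-like pre-plasma cells, 1 pre-memory cell, 11 light-to-dark zone, 23 light zone and 63 dark zone cells. They were compared with the same germinal centre gates, so this comparison shares its germinal centre pools with the one above. Here 3 of 6 tested members rose, against 15.2% of 7150 genes called in either direction and 7.09% called higher. Itga4 had 0, 35.1 and 146 CPM in the pre-plasma gate and 0, 0 and 25.6 CPM in the germinal centre gates (log2 fold change 6.16 ± 1.29, adjusted p = 9.97e-04, edgeR). Cd9 had 0, 60.8 and 152 CPM in the pre-plasma gate and 0, 0 and 23.4 CPM in the germinal centre gates (7.29 ± 1.01, adjusted p = 5.29e-06, edgeR). The annotated plasma cells of the gate held 1242 of its 1558 Itga4 counts and 1118 of its 1863 Cd9 counts. Both genes were above the highest germinal centre pool on most plates, Itga4 on 13 and Cd9 on 15 of 19. Within C57BL/6M the Itga4 difference of 5.62 did not pass (adjusted p = 0.131, edgeR), and within C57BL/6F Itga4 did not pass the filter on low counts.

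Cd44 rose less in the pre-plasma gate, with 36.2, 94.9 and 239 CPM against 51.5 CPM in the median germinal centre pool (1.32 ± 0.44, adjusted p = 0.0417, edgeR). That call rested on single plates: it was lost when plate 1, 3, 5, 8, 9, 12, 13, 16 or 20 was left out, with adjusted p up to 0.0759, and kept its direction. The call was also lost with no filter on low counts and with the sampleID in place of the plate block. It was lost within each sampleID alone as well, and adjusted p in these fits ran up to 0.382 (edgeR). The LFA-1 genes did not pass, with Itgal at 0.58 ± 0.52 (adjusted p = 0.531, edgeR) and Itgb2 at -0.02 ± 0.19 (adjusted p = 0.967, edgeR). Itgb1 had medians of 64.8 CPM in the pre-plasma gate and 37.1 CPM in the germinal centre gates and did not pass (1.12 ± 0.70, adjusted p = 0.339, edgeR). Itgb7 did not pass the filter on low counts and was not tested. Its 2690 counts in the pre-plasma gate, against 187 in the germinal centre gates, came from 33 of 282 cells, and 4 of 19 pools had none. Without plates 2, 4 and 6 it passed the filter and was called higher (4.14 ± 1.28, adjusted p = 0.0266, edgeR).

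Set against the pre-plasma gate, the plasma cell gate was higher in 5 of 7 members, with 18.1% of 6564 genes called and 8.42% called higher. Itgal had medians of 137 CPM in the plasma cell gate and 42.1 CPM in the pre-plasma gate (1.88 ± 0.46, adjusted p = 0.00501, edgeR) and was higher on 18 of 19 plates. Itgb2 had medians of 321 and 198 CPM in the plasma cell and pre-plasma gates (0.76 ± 0.17, adjusted p = 0.00244, edgeR), and Cd44 medians of 187 and 91.9 CPM (0.81 ± 0.25, adjusted p = 0.0229, edgeR). Against the shared pools of the germinal centre gates, Itgal and Itgb2 thus passed in the plasma cell gate and did not pass in the pre-plasma gate, and the direct test between the 2 gates passed for both.

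Itga4 and Cd9 were also called between the 2 gates. Itga4 had medians of 136 CPM in the plasma cell gate and 34.0 CPM in the pre-plasma gate (1.61 ± 0.51, adjusted p = 0.0288, edgeR), a call lost without plate 1, 3, 17 or 18 (adjusted p up to 0.0539). Cd9 had medians of 108 and 59.5 CPM in the plasma cell and pre-plasma gates (1.36 ± 0.46, adjusted p = 0.0397, edgeR), a call lost without plate 5, 7, 8, 9, 10, 12, 14, 18, 19 or 20 (adjusted p up to 0.0700), with the size factors of DESeq2, with no filter and without the plate block. Within C57BL/6F none of the 5 calls held, and within C57BL/6M those of Itga4, Cd44 and Cd9 did not (adjusted p up to 0.550 for Itga4, 0.489 for Cd44 and 0.457 for Cd9, edgeR). Over all genes, 302 of 6278 were called within C57BL/6F and 764 of 6245 within C57BL/6M. Without plate 18 the number of members called was 3. Itgb1 ran the other way without passing, with medians of 26.3 CPM in the plasma cell gate and 61.4 CPM in the pre-plasma gate (-0.96 ± 0.89, adjusted p = 0.519, edgeR), and Itgb7 did not pass at 1.25 ± 1.29 (adjusted p = 0.578, edgeR), turning to -0.10 without the plate block. With each cell thinned to 10000 counts, 4 members passed the filter. Itgal (1.89, adjusted p = 8.78e-04) and Cd9 (2.17, adjusted p = 7.97e-04) were called, while Itgb2 (0.30, adjusted p = 0.338) and Cd44 (0.66, adjusted p = 0.153, edgeR) were not. The Cd44 call was also lost with no filter on low counts.

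**Figure D2:**
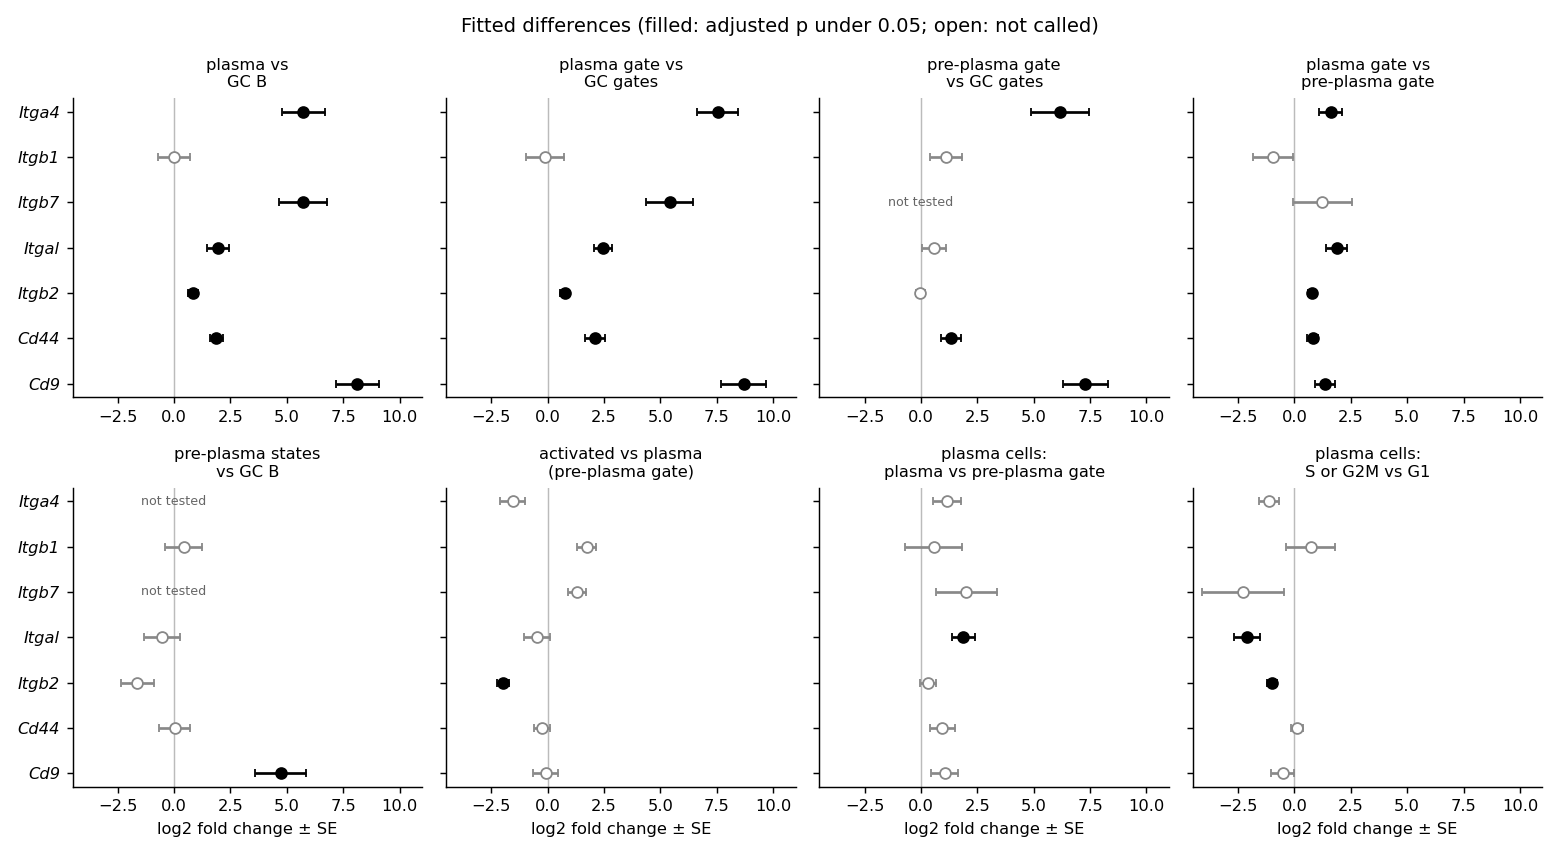
Fitted log2 fold changes with SE (x axis) of the 7 members (rows) in 8 comparisons (panels); filled points have an adjusted p under 0.05 and open points do not. Itgb1 is open in every panel, Cd9 is filled in each comparison of plasma or pre-plasma with germinal centre cells, and Itgb2 lies left of 0 in activated and in cycling cells.

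Across the 4 gates, summed over all cells and read from dark zone to light zone, pre-plasma and plasma, Itga4 stood at 1.4, 4.95, 44.3 and 124 CPM and Cd9 at 4.02, 2.78, 53.0 and 133 CPM. Cd44 stood at 67.3, 46.8, 114 and 167 CPM in the same order, and Itgal at 35.7, 30.3, 46.3 and 147 CPM. Itgb1 and Itgb7 did not follow that order, with their highest values in the pre-plasma gate: Itgb1 stood at 33.2, 38.3, 71.8 and 27.1 CPM and Itgb7 at 1.87, 5.92, 76.5 and 59.8 CPM. The pre-plasma gate was also the deepest, and with cells thinned to 10000 counts these ranks turned: Itgb1 stood at 37.7 CPM in the pre-plasma gate and 50.1 CPM in the light zone gate, and Itgb7 at 62.4 CPM in the plasma cell gate and 45.1 CPM in the pre-plasma gate. Itgb2 stood at 234, 234, 266 and 367 CPM. Between the dark and light zone gates edgeR called none of 4 members tested, 0 had an unadjusted p under 0.05 and DESeq2 called 0, with 0.305% of all genes called.

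The annotation resolves the pre-plasma gate into states. It may have been made from the same transcripts, so that tests between its classes describe them. The 29 activated pre-plasma cells, all from the pre-plasma gate, had the highest summed level of the 7 states for both β1 and β7. Itgb1 stood at 159 CPM in activated cells, with 159 in C57BL/6M and 160.3 in C57BL/6F. The next states were light zone cells at 54.6 and light-to-dark zone cells at 53.7 CPM, which lay close together, then plasma cells at 33.2, dark zone cells at 29.1, pre-memory cells at 23.0 and memory-like cells at 3.17 CPM. Itgb7 stood at 176 CPM in activated cells, with 157 in C57BL/6M and 208 in C57BL/6F, followed by 121 CPM in pre-memory cells (178.9 in C57BL/6M and 89.4 in C57BL/6F), 80.5 in memory-like, 59.7 in plasma, 18.1 in light zone, 1.58 in dark zone and 0.200 in light-to-dark zone cells. Activated and pre-memory cells thus overlapped in Itgb7, and with thinned cells they stood at 166 and 171 CPM. The Itgb7 levels of memory-like cells (34.4 CPM in C57BL/6M and 152 in C57BL/6F) overlapped those of plasma cells.

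Itga4 was highest in plasma cells at 106 CPM (115 in C57BL/6M, 94.1 in C57BL/6F), with 27.1 CPM in activated, 20.4 in pre-memory, 7.24 in dark zone, 2.81 in light-to-dark zone, 0.634 in memory-like and 0.463 in light zone cells. Cd9 stood at 107 CPM in plasma cells (123 in C57BL/6M, 86.2 in C57BL/6F) and 83.6 CPM in activated cells (105 in C57BL/6M, 45.2 in C57BL/6F), which overlapped, then at 49.4 CPM in memory-like cells and at 6.39 CPM or less in the other 4 states, with a count in 0 of 48 light-to-dark zone cells, where the exact 95% interval of the share of cells with a count, which is not the share expressing the gene, reached 7.40%. Cd44 stood at 158 CPM in plasma and 135 CPM in activated cells and between 25.4 and 59.1 CPM in the other 5 states. Itgal stood at 111 CPM in plasma cells and 83.7 in memory-like cells, and Itgb2 at 369 CPM in plasma cells, 291 in pre-memory cells and 109 and 88.7 CPM in activated and memory-like cells.

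The memory-like values rest on single cells. Their median depth was 16638 counts and 376 genes per cell, against 229914 counts and 3691 genes in activated cells. A single cell held 99.2% of their Itgal counts, 97.4% of their Cd9 counts, 92.5% of their Cd44 counts and 74.0% of their Itgb7 counts, the Itgb7 and Cd9 counts lying in the same plasma gate cell of C57BL/6F plate 4. No member was detected in 79.4% of memory-like cells, against 6.90% of activated cells. Summed per sampleID, the activated and memory-like states (2 sums each) gave 0 of 7 members called by edgeR with 1 unadjusted p under 0.05, against 1.78% of all genes called. DESeq2 gave an adjusted p for 6 members and called 1, Itgb1 at an adjusted p of 0.0246, with 290 of 4678 genes called.

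**Figure D3:**
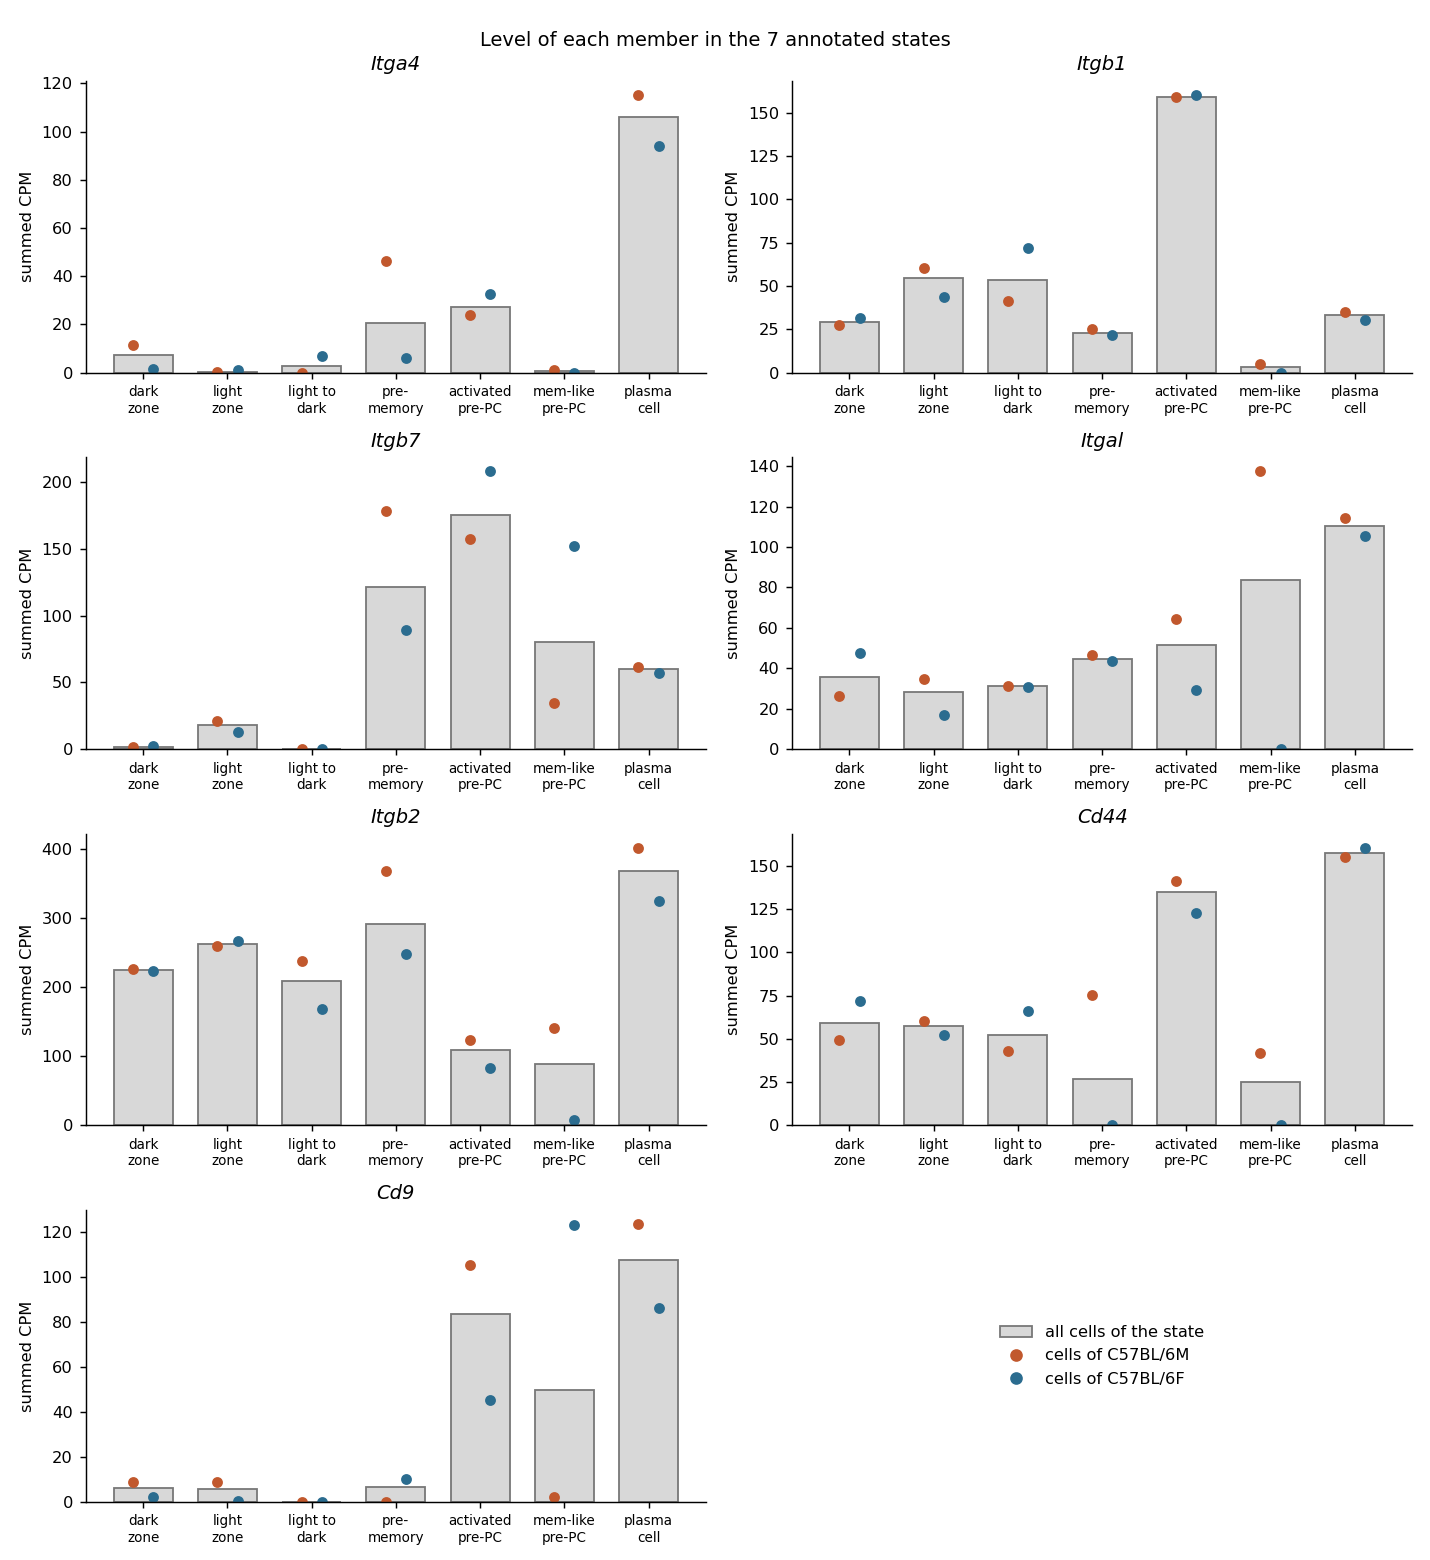
Summed CPM (y axis, from 0) of each member in the 7 annotated states, with grey bars for all cells of a state and points for the cells of each sampleID. Activated cells have the tallest bars for Itgb1 (159 CPM) and Itgb7 (176 CPM), plasma cells for Itga4, Itgal, Itgb2, Cd44 and Cd9; the points of the memory-like state lie far apart for Itgal, Itgb7 and Cd9.

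Activated cells were compared with plasma cells of the same gate on 2 sums per class, with the sampleID as block, so that the gate was held fixed. Itgb2 fell, with 77.1 and 117 CPM in the activated sums against 328 and 432 CPM in the plasma sums (log2 fold change -1.98 ± 0.27, adjusted p = 0.00692, edgeR). It was the only member called of 7, with 2.70% of 9423 genes called and 2.36% called lower. Itgb1 had 148 and 149 CPM in activated cells and 41.8 and 48.2 CPM in plasma cells (1.74 ± 0.42, adjusted p = 0.0817, edgeR), and Itgb7 148 and 193 CPM in activated cells and 62.4 and 76.1 CPM in plasma cells (1.31 ± 0.38, adjusted p = 0.150, edgeR). Itga4 had 22.4 and 30.2 CPM in activated cells and 73.0 and 80.9 CPM in plasma cells (-1.55 ± 0.57, adjusted p = 0.262, edgeR). In each of these 3 genes the unadjusted p was under 0.05 and DESeq2 made the call, while edgeR did not. Over all genes, DESeq2 called 1633 of 9057, and 1248 of 9423 had an unadjusted p under 0.05 in edgeR. Itgb1 was also called by edgeR with the size factors of DESeq2 or without immunoglobulin genes. Itgal, Cd44 and Cd9 had log2 fold changes of -0.46 ± 0.57, -0.24 ± 0.37 and -0.09 ± 0.54 and did not pass in either tool.

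Between annotated plasma cells and germinal centre B cells, the members gave the values of the gates again, since 351 of the 480 plasma cells came from the plasma cell gate. The same 6 members passed, with 30.9% of 7649 genes called and 15.1% called higher. Their log2 fold changes were 5.74 ± 0.94 for Itga4, 5.71 ± 1.07 for Itgb7, 1.95 ± 0.48 for Itgal, 0.83 ± 0.23 for Itgb2, 1.87 ± 0.30 for Cd44 and 8.13 ± 0.96 for Cd9, and Itgb1 stood at -0.0029 ± 0.69 (adjusted p = 0.998, edgeR). Each remained called when any 1 plate was left out, but within C57BL/6F alone Itgal (1.70, adjusted p = 0.252) and Itgb2 (0.66, adjusted p = 0.361, edgeR) did not pass.

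The activated and memory-like cells together gave 9 pools, which were compared with 20 germinal centre B pools. The sampleID was used in place of the plate in this fit, so pools of the same plate were not paired. Of 5 members tested, Cd9 was called, with 0, 71.3 and 269 CPM in pre-plasma pools and 0, 0 and 38.6 CPM in germinal centre B pools (4.72 ± 1.13, adjusted p = 0.00238, edgeR), against 18.0% of 7942 genes called and 2.14% called higher. Without plate 5, 11, 13 or 19, Cd9 did not pass the filter on low counts and the number called was 0. Itgb2 had 0, 39.5 and 726 CPM in pre-plasma pools and 0, 255 and 348 CPM in germinal centre B pools and did not pass (-1.63 ± 0.73, adjusted p = 0.127, edgeR). It was called without plate 6, at -2.35 with an adjusted p of 0.0172. With the plate as block on the plates that held both classes, Cd9 was not tested, and 177 of 4614 genes were called. The 9 pools mix 2 states whose depths differ.

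Within annotated plasma cells the gate was then varied, on 17 plates with plasma cells from both the plasma cell and the pre-plasma gate. Itgal alone passed, with 0, 144 and 344 CPM in plasma cells of the plasma gate and 0, 57.6 and 102 CPM in plasma cells of the pre-plasma gate (1.88 ± 0.51, adjusted p = 0.0249, edgeR), and was higher on 16 of 17 plates. Over all genes, 5.95% of 5713 were called and 4.67% called higher. Plasma cells of the plasma gate were also higher in Cd9 and Cd44 by 1.05 ± 0.59 and 0.95 ± 0.54, which did not pass (adjusted p = 0.430 and 0.443, edgeR). Neither did Itga4 at 1.16 ± 0.62, Itgb7 at 2.02 ± 1.37 and Itgb1 at 0.57 ± 1.26 (adjusted p = 0.397, 0.567 and 0.913, edgeR). Of these, Itga4, Cd9 and Cd44 had been called between the gates as a whole. Itgb2, which differed between the gates as a whole, stood at 0.30 ± 0.36 between plasma cells of both gates (adjusted p = 0.792, edgeR), with medians of 336 CPM in those of the plasma gate and 323 CPM in those of the pre-plasma gate. The Itgal call was lost within C57BL/6M (1.47, adjusted p = 0.184) and within C57BL/6F (2.42, adjusted p = 0.431, edgeR), and held with thinned cells (1.75, adjusted p = 0.00150, edgeR). Plasma cells of the pre-plasma gate were deeper, at a median of 106183 counts against 64068 in the plasma gate. Cell cycle phase was not held fixed here, and the part of phase in the Itgal difference was not tested.

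Plasma cells that the authors' table placed in S or G2M were compared with those in G1 on 15 plates, to see whether the members move with proliferation within 1 state. Both chains of LFA-1 fell in the cycling cells, and no member rose. Itgal had 0, 48.0 and 90.1 CPM in cycling pools against 0, 179 and 318 CPM in G1 pools (-2.09 ± 0.56, adjusted p = 0.0136, edgeR), and was higher in the cycling pool on 2 of 15 plates. Itgb2 had 105, 175 and 329 CPM in cycling pools and 67.2, 499 and 662 CPM in G1 pools (-0.99 ± 0.22, adjusted p = 0.00313, edgeR), also higher in the cycling pool on 2 of 15 plates. These were 2 of 7 members, against 15.3% of 5760 genes called, 7.19% lower and 8.12% higher, with a median log2 fold change over all genes of 0.05.

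The other members were not called between the phases. Itga4 had medians of 55.7 CPM in cycling and 144 CPM in G1 pools (-1.13 ± 0.44, adjusted p = 0.0961, edgeR), and was called by DESeq2 and with the second phase column of the table, an alternative added after the data were seen. Over all genes, DESeq2 called 1746 of 5760, and the second phase column gave 910 of 5696. Itgb1 at 0.72 ± 1.07, Itgb7 at -2.26 ± 1.82, Cd44 at 0.13 ± 0.28 and Cd9 at -0.52 ± 0.52 did not pass. Summed over phases in their own order, Itgb2 stood at 488 CPM in G1, 228 in S and 217 in G2M cells, and Cd44 at 137, 155 and 208 CPM. Cycling cells were deeper, with medians of 159640 counts in S and 147970.5 in G2M cells against 61156 in G1 cells. Thinned to 10000 counts per cell, 2 members passed the filter, of which Itgb2 was called at -0.99 (adjusted p = 0.00541) and Cd44 was not (0.30, adjusted p = 0.515, edgeR). Itgb2 also passed within C57BL/6M (-1.31) and not within C57BL/6F (-0.77, adjusted p = 0.256, edgeR), and Itgal passed in neither alone, at -2.32 in C57BL/6M and -2.0 in C57BL/6F. The phases were called from the same cells, and the part of depth in the phase call was not tested. The gate was not held fixed between the phases, and its part in these differences was not tested.

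**Figure D4:**
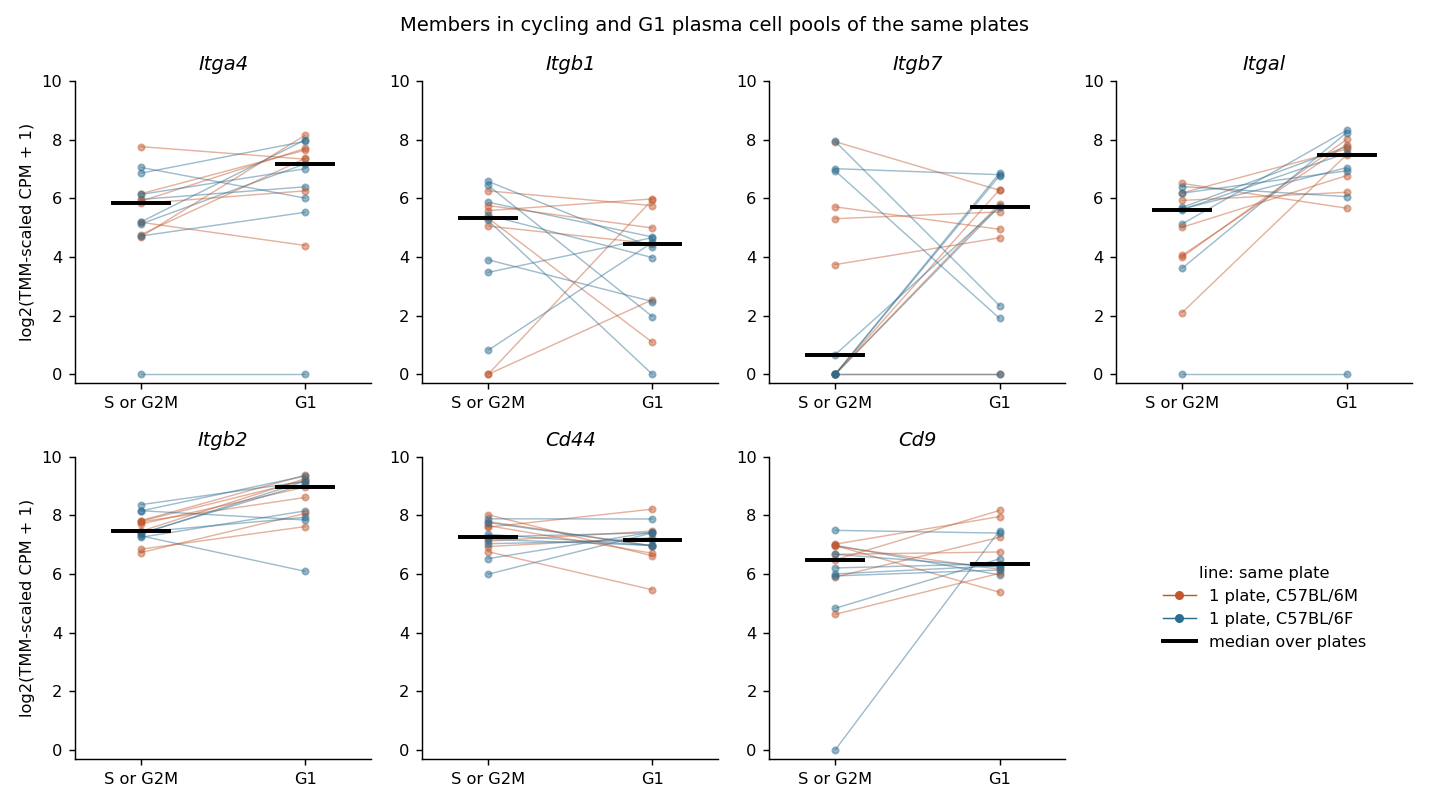
Level of each member, as log2 of TMM-scaled CPM plus 1, in plasma cell pools in S or G2M (left) and in G1 (right) of 15 plates; lines join pools of 1 plate and black bars are medians. Itgb2 and Itgal lines run higher on the G1 side on 13 and 12 of 15 plates, and Cd44 bars are level.

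The remaining contrasts gave no called member. Plasma cells with a mutated heavy chain (at least 1 mutated base, 212 cells) and with an unmutated one (263 cells) gave 0 of 7 called, with 0.164% of 5495 genes called by edgeR, 1 unadjusted p under 0.05 and 0 calls by DESeq2. That one was Itgb2, with medians of 408 CPM in mutated and 269 CPM in unmutated pools of 19 plates (0.48 ± 0.23). Of the related lists, Cd36 was called, with 0, 0 and 321 CPM in mutated pools and 0, 226 and 321 CPM in unmutated pools (-6.34 ± 1.27, adjusted p = 0.0205, edgeR). The ranges overlapped, and the mutated pool was higher on 2 of 19 plates. Dark and light zone cells by annotation gave 0 of 4 tested members called, 0 unadjusted p under 0.05 and 0 by DESeq2, with 1.41% of 5447 genes called. Itga4 had 215 counts in dark zone cells and 7 in light zone cells and did not pass the filter on low counts, with 58 of those 215 counts in 1 cell.

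No member was called by edgeR between C57BL/6M and C57BL/6F either. In plasma cells 0 of 7 members were called, with 0.956% of 7216 genes called, and in germinal centre B cells 0 of 4, with 0.552% of 7423 genes called. None had an unadjusted p under 0.05 and DESeq2 called 0 in both classes. In germinal centre B cells, however, DESeq2 gave an adjusted p for only 1 of the 4 members. The largest log2 differences in plasma cells were 0.71 ± 0.48 for Cd9, with medians of 112 CPM in C57BL/6M and 75.3 CPM in C57BL/6F, and 0.57 ± 0.65 for Itga4, with medians of 124 and 87.4 CPM in C57BL/6M and C57BL/6F. Tests of whether the class differences above differed between the sampleIDs found 0 of 27, with the lowest adjusted p at 0.999 (edgeR).

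In single cells, a count of Itga4 was seen in 147 of 480 plasma cells, a share of 30.6% (exact Clopper-Pearson 95% interval 26.5% to 35.0%, for counting error only), in 31.0% of activated cells (15.3% to 50.8%) and in 2.06% of germinal centre B cells (1.18% to 3.32%). For Cd9 the shares were 26.7% (22.8% to 30.9%) of plasma cells, 37.9% (20.7% to 57.7%) of activated cells and 1.16% (0.530% to 2.19%) of germinal centre B cells, and for Itgb7 11.5%, 34.5% and 1.80%. The germinal centre B share is the background against which the others are read, at median depths of 70190 counts in plasma and 54434.5 counts in germinal centre B cells. Itgb1 was seen in 65.5% (45.7% to 82.1%) of activated cells, 13.8% (10.8% to 17.2%) of plasma cells and 13.2% (10.9% to 15.8%) of germinal centre B cells.

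Activated cells were the deepest, at a median of 229914 counts. Thinned to 10000 counts per cell, which left out 3 plasma, 0 activated and 71 germinal centre B cells, the Itgb1 shares were 9.64% in plasma, 44.8% in activated and 10.5% in germinal centre B cells. The Itga4 shares were then 24.5%, 20.7% and 1.41%, and the Cd9 shares 21.4%, 34.5% and 0.707%, in the same order. Itgb2, seen in 58.3% of plasma and 39.7% of germinal centre B cells, stood at 52.0% and 36.4% after thinning. A plasma cell held a median of 2 of the 7 members and 14.4% of plasma cells held none, against a median of 1 and 44.1% in germinal centre B cells.

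**Figure D5:**
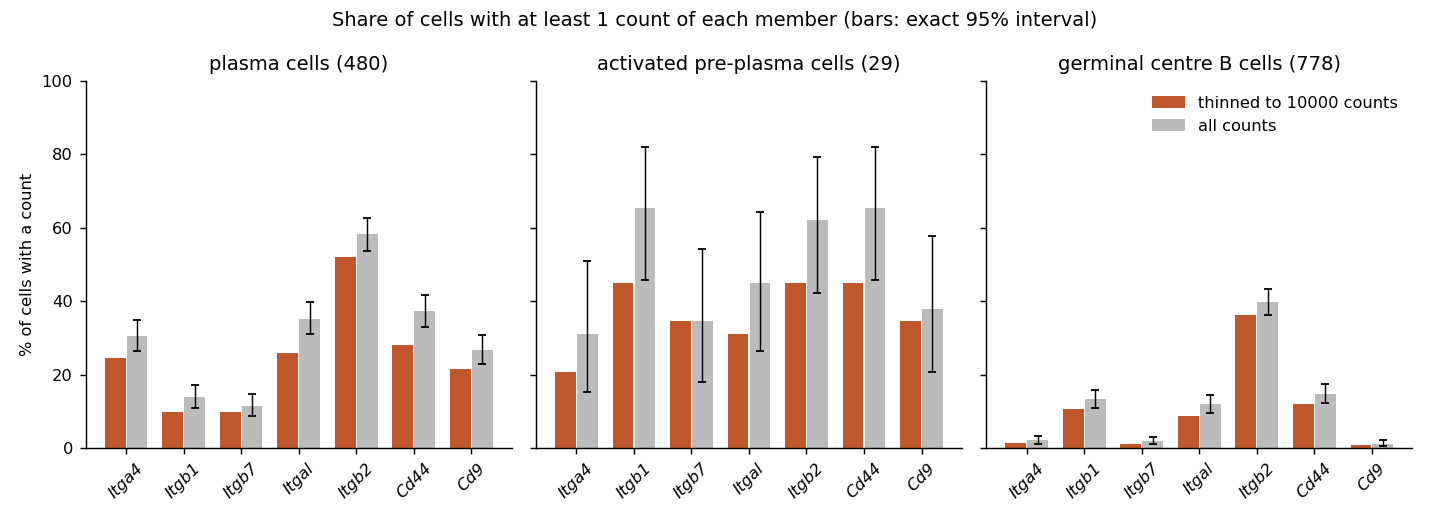
Share of cells (y axis, percent) with at least 1 count of each member in plasma, activated pre-plasma and germinal centre B cells; grey bars use all counts with exact 95% intervals and orange bars cells thinned to 10000 counts. Itga4, Itgb7 and Cd9 lie at 2.06% or less in germinal centre B cells, and Itgb1 stands at 65.5% in activated cells.

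Partner chains were seen together in part of the cells. Among plasma cells with Itga4, 21.1% had Itgb1 and 20.4% had Itgb7, against 10.5% and 7.51% of the plasma cells without Itga4. Among those with Itgal, 69.8% had Itgb2, against 52.1% of the rest. Cells with a count were deeper, with medians of 83549 counts with and 67113 without Itga4, so the shares describe detection at unequal depth. In the 29 activated cells, all 10 cells with Itgb7 lay among the 19 with Itgb1, and 6 of the 9 cells with Itga4 had Itgb7. The other 16 integrin subunit genes of the matrix were sparse in plasma and germinal centre B cells: Itgav was seen in 2.5% of plasma cells and 3.73% of germinal centre B cells, Itgb3 in 1.46% and 2.44%, Itga6 in 1.88% and 0.386%, and Itgae, the other partner of β7, in 0.625% and 0.514%. Itgam was seen in 1.04% and 0.257% of these, but in 4 of the 29 activated cells. Those 4 cells held 102 of its 165 counts in all cells, at 13.4 CPM in the activated state.

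Other genes of adhesion were counted by lists. In the list of integrin activation and linkage, 2 of 23 tested genes rose and 4 fell in annotated plasma cells against germinal centre B cells, where 15.1% of all genes rose and 15.8% fell, with a list median of -0.38 and -0.25 over all genes. Cytip, which restrains LFA-1 adhesion through cytohesin-1, rose by 3.73 ± 0.52. Ptk2, which encodes focal adhesion kinase, fell by 7.66 ± 0.79, Apbb1ip, the Rap1 effector that brings talin to integrins, fell by 4.13 ± 1.12, and Parvg, which encodes γ-parvin, fell by 2.24 ± 0.55. The shares of all genes apply likewise to the lists that follow. In the tetraspanin list 3 of 9 rose and 3 fell, with Tspan31 up by 2.83 ± 0.65 and Tspan13 by 1.53 ± 0.09, and with Cd37, a B cell tetraspanin, at -2.03 ± 0.30 and Tspan32 at -1.48 ± 0.37.

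The list of ligands and other adhesion molecules had 10 of 21 tested genes higher and 3 lower, with a list median of 1.03; without Selplg, whose protein was a channel of the sort, 9 of 20 were higher. Epcam, a homophilic adhesion molecule, rose by 10.08 ± 0.61, and Cd93, a lectin-like receptor required in mice for long-lived plasma cells, by 9.29 ± 0.78. Cd36, a scavenger receptor, rose by 5.14 ± 0.84, while Slamf1 fell by 7.86 ± 0.87. Of 7 CD44 partners and ERM linkers, 2 rose and 2 fell, and 2 of the ERM genes moved apart: Rdx (radixin) rose by 3.77 ± 0.91 and Msn (moesin) fell by 1.58 ± 0.16. Sdc4, a heparan sulphate proteoglycan, rose by 5.13 ± 1.42, and Cd74, the invariant chain that can signal through CD44, fell by 0.51 ± 0.06. Of the other integrin subunits, 1 of 16 in the matrix passed the filter and it was not called.

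Between the plasma cell and the pre-plasma gate, Cd36 fell by 3.65 ± 0.86, while Cd93 rose by 5.77 ± 1.04 and Epcam by 3.43 ± 0.87, with 6 of 19 genes of the list of ligands and other adhesion molecules, Selplg left out, higher and 4 lower, against 8.42% and 9.69% of all genes. In the pre-plasma gate against the germinal centre gates, Cd36 rose by 6.12 ± 0.86, with 8 of 17 higher and 1 lower, again without Selplg, against 7.09% and 8.14% of all genes, and these 2 comparisons share the pre-plasma pools. The actin linker Flna (filamin A) fell by 3.77 ± 0.94 and Parvg by 3.63 ± 0.95 in the plasma cell gate against the pre-plasma gate. Selplg, which encodes PSGL-1, is in that list of adhesion molecules, but PSGL-1 was a channel of the sort, so its difference between gates is no finding: it rose by 5.38 ± 0.46 in the plasma cell gate against the germinal centre gates.

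In cycling against G1 plasma cells, the tetraspanin genes Cd81, Cd53 and Tspan13 fell by 1.19 ± 0.09, 1.14 ± 0.15 and 1.08 ± 0.11, 3 of 8 tested, with none higher, where 8.12% of all genes rose and 7.19% fell. In the adhesion list 2 of 19 rose and 5 fell, among them Icam2, a ligand of LFA-1, which fell by 1.72 ± 0.53. Cytip fell by 1.14 ± 0.37, and Hmmr, a hyaluronan receptor named also as a spindle protein, rose by 8.22 ± 1.13. The phases were called from the same cells, and whether Hmmr entered that call is not given in the sources used here. In activated cells against plasma cells of the pre-plasma gate, Cytip fell by 1.68 ± 0.36, Tspan13 by 1.59 ± 0.18 and Cd74 by 0.99 ± 0.11. In annotated dark zone cells against light zone cells, Cd53 fell by 0.74 ± 0.10 and Msn by 0.61 ± 0.15.

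Genes with the pattern most like each member were sought over 38 pools of annotated plasma and germinal centre B cells among 8435 genes, by the Pearson correlation of log2(CPM + 1). The pools share plates, depth and the difference between the 2 classes, so r is a description. Itga4 was closest to Cd28 (r = 0.88) and Ide (0.86), and within the 19 plasma pools alone r was 0.91 and 0.94. For Itgb7 they were Cpeb3 (0.87) and Ddx58 (0.84), for Itgal Eif2b4 (0.84) and Araf (0.83), for Itgb2 Clpp (0.80) and Hbp1 (0.78), and for Itgb1 Slc35a2 (0.61). Cd9 was closest to Adgre5 (0.94), which encodes the adhesion receptor CD97, and Alpl (0.93), with r of 0.80 and 0.88 within plasma pools. Cd44 was closest to Pqlc3 (0.93) and Iglv3 (0.91), with r of 0.11 and 0.28 within plasma pools. Among the members themselves, over the 19 plasma pools, r was 0.84 between Itga4 and Itgal, 0.68 between Itga4 and Itgb7, 0.49 between Itgal and Itgb2 and 0.36 between Itga4 and Itgb1.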

How the data were processed

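FB5P-seq, a plate-based 5′ single-cell RNA-seq method with index sorting and receptor sequencing, was used on 1367 cells on 20 plates, with 22 preamplification cycles per the labels' protocols. The authors deposited whole-number counts per gene and cell. STAR 2.5.3a, HTSeq 0.9.1 and mm10 are named in the submitters' processing notes, and the filter on cells and the treatment of doublets are not given in the sources used here. No count exceeded 1024 per gene and cell. The deposited table of cells also holds the share of spike-in counts as a fraction, the number of mutated heavy chain bases as a count, fluorescence on an inverse hyperbolic sine scale, and labels for plate, gate, state and cell cycle phase. Gates are named as deposited, and their limits are not given.

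Counts were summed per plate and class (at least 5 cells) and scaled by TMM. Low counts were removed by filterByExpr, and edgeR 4.0.16 quasi-likelihood tests were run in R 4.3.3 with the plate as block. Annotated pre-plasma cells were fitted with the sampleID in place of the plate, activated cells on sums per sampleID with that as block, and C57BL/6M against C57BL/6F with no covariate. P-values were adjusted by Benjamini-Hochberg over all genes tested, with a threshold of 0.05. The SE is the fold change divided by the square root of F. Shares of cells were recomputed after thinning to 10000 counts. Alternatives were DESeq2 1.42.0, its size factors, no filter, no immunoglobulin genes (301 left out), thinned cells, each sampleID alone, pools of at least 10 cells, another block and leaving out plates. The procedure was tested on simulated data. The well barcodes did not tie plates to the labelled samples, so plates were assigned to a sampleID by the deposited sex letter. The members, the related lists and the tests were chosen with earlier results of these data known. Besides the members, the text names from each list at most the 4 called genes with the largest fold change in a comparison, and for each member the 2 genes of highest correlation, though some genes that met these rules are not reported here; the sparse integrin subunits given as shares of cells were chosen after their values were seen. Positions are from the GENCODE annotation of GRCm38.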

Additional observations from a re-analysis of the deposited data

Results flagged for a closer look

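Levels were checked for single pools far from the rest of their sampleID. Of 28 groups of pools, 4 had such a pool, all in germinal centre B cells. The limit used flags about 5% of groups by chance if pool values are normally distributed. That rate need not hold here: of the 10 C57BL/6F germinal centre B pools, 7 had no Cd9 count. Itgb1 stood at 139 CPM on plate 1 of C57BL/6F, from 241 counts in 41 cells, with the next pool at 57.3 and a median of 29.2 CPM. Itgb7 stood at 48.0 CPM on plate 11 of C57BL/6M, from 205 counts in 50 cells, with the next pool at 2.39 CPM. On that plate 1 light zone cell of the pre-plasma gate held 204 Itgb7 counts, 63.2% of all Itgb7 counts of germinal centre B cells, and 62 Cd9 counts. Itgal stood at 365 CPM on plate 6 of C57BL/6F, from 2 counts in 5 cells, with the next pool at 81.0 CPM. Cd9 stood at 10.7 CPM on plate 5 of C57BL/6F, from 27 counts in 44 cells, with the next pool at 0.573 CPM.

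The 17 pre-memory cells entered no comparison, and all 7 members had more than the 3 counts that a count of 0 allows. They held 228 counts of Itgb2, 95 of Itgb7, 35 of Itgal, 21 of Cd44, 18 of Itgb1, 16 of Itga4 and 5 of Cd9. The Cd44 and the Cd9 counts lay in 1 cell each.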

How the results depend on the processing

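No member changed direction past the threshold under any alternative. Without any 1 plate, the members called in the plasma cell gate and in annotated plasma cells against germinal centre cells numbered 6 to 6. Counts of called members that moved by more than 1.5 times were as follows. Within C57BL/6F alone the count was 2 of 6 tested for the plasma cell gate against the germinal centre gates, 1 for the pre-plasma gate against the germinal centre gates, and 0 for the plasma cell against the pre-plasma gate, for annotated pre-plasma cells, for plasma cells between gates and for cycling cells. Calls over all genes were then, in that order, 953 of 6514, 529 of 6936, 302 of 6278, 1534 of 7447, 82 of 5441 and 440 of 5870. With both sampleIDs they were 2398 of 6865, 1089 of 7150, 1189 of 6564, 1433 of 7942, 340 of 5713 and 882 of 5760. Within C57BL/6M alone the member count was 1 for the pre-plasma gate, 2 for the plasma cell against the pre-plasma gate, 0 for annotated pre-plasma cells and for plasma cells between gates, and 1 for cycling cells. Calls over all genes were then, in that order, 495 of 6888, 764 of 6245, 619 of 8497, 162 of 5286 and 359 of 5322. Each sampleID alone has fewer plates. With thinned cells the member count was 1 of 2 tested for the pre-plasma gate, 2 of 4 for the plasma cell against the pre-plasma gate, 2 for annotated pre-plasma cells (Itgb2 then being called lower at -2.96) and 1 of 2 for cycling cells. Calls over all genes were then, in that order, 773 of 2973, 934 of 2633, 1373 of 5435 and 599 of 1623. With no filter on low counts the member count was 3 for the plasma cell against the pre-plasma gate, 2 for annotated pre-plasma cells and 0 for plasma cells between gates. Calls over all genes were then 1379 of 14834, 1985 of 14465 and 484 of 13770. For plasma cells between gates the member count was also 0 with pools of at least 10 cells and with the sampleID in place of the plate block. There 8 of 6359 and 244 of 5923 genes were called. For annotated pre-plasma cells the member count was 2 without plates 2, 4 and 6, with 1426 of 8725 genes called. DESeq2 called 1 member between activated and memory-like cells and 4 between activated and plasma cells of the pre-plasma gate, where the size factors of DESeq2 and leaving out immunoglobulin genes gave 2 each. Calls over all genes were then, in that order, 290 of 4678, 1633 of 9057, 327 of 9423 and 376 of 9278. For annotated pre-plasma cells the member count was 0 with the plate as block on the plates that held both classes, where 4 members were tested and Cd9 was not among them. In that fit 177 of 4614 genes were called. Causes were not tested. Leaving out 1 plate gave 2 to 4 members in the pre-plasma gate, 3 to 5 between the plasma cell and pre-plasma gates, and 0 to 2 in annotated pre-plasma cells. Over all genes, 979 to 1177, 1037 to 1261 and 1261 to 1791 were then called. DESeq2 moved the number of all genes called by more than 1.5 times in 13 of 14 comparisons. With the size factors of DESeq2, the split for dark against light zone cells was 41 higher and 42 lower, against 46 and 31, and without immunoglobulin genes that for activated against plasma cells was 86 higher and 290 lower, against 32 and 222. The size factors of DESeq2 moved the median of all genes by -0.10 in the plasma against germinal centre B comparison, by -0.10 between the plasma cell and pre-plasma gates, by -0.11 for plasma cells between gates and by 0.18 for annotated pre-plasma cells. Cycling cells could not be fitted with pools of at least 10 cells. Classes were paired by plate, and the plate was the block of the fits; the labels' replicate numbers gave no further pairing.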
